A study of Mus musculus with 40 samples.

Results

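Retinoic acid (RA) and withdrawal of leukemia inhibitory factor (LIF) are both used to take mouse embryonic stem (ES) cells out of the self-renewing state, and the comparison described here asks which genes separate cells given the one from cells given the other. The members were the 4 arrays titled with RA and the 4 titled LIF-, 8 of the 40 arrays of the series, paired by cell line. The 4 LIF+ arrays of the same lines served as the starting level. The 4 lines were MG1.19 (strain 129Sv), ES 129.3 (129SvEv-Tac), Nanog episomal and Nanog/EF1#6, all labelled as male ES cells. The titles give passage 5 for MG1.19 and passage 12 for ES 129.3, and no passage for the Nanog lines. Nanog episomal (129Sv) carried Nanog on an episomal pPYFloxed vector and was made from MG1.19, a line that expresses the polyoma large T antigen such vectors need. Nanog/EF1#6 (129SvEv-Tac) carried Nanog in a pEF6/IRES neo plasmid. Each Nanog line was a single clone grown up under drug selection. Each line was cultured for 3 days in complete medium with serum and LIF (LIF+), in the same medium without LIF (LIF-), or in complete medium to which 1 µM RA was added (RA). The RA medium thus still contained LIF, so that RA and LIF- cultures differed both in RA and in LIF, and the effects of these cannot be told apart in their difference alone. All other arrays of the series are of other experiments.

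RA enters the nucleus bound to carrier proteins and activates heterodimers of a retinoic acid receptor (RAR) and a retinoid X receptor (RXR), which bind DNA at direct repeats of a short half-site. Among the best-known targets are the enzyme that destroys RA, the receptor RARB and the Hox genes at the 3′ ends of their clusters. LIF binds LIFR and gp130, activates JAK kinases and the transcription factor STAT3, and in mouse ES cells keeps up Klf4, Tfcp2l1 and Tbx3, genes of the naive state. STAT3 also switches on its own inhibitor Socs3. ES cells released from LIF in serum pass towards a state like that of the postimplantation epiblast, of which the growth factor gene Fgf5 is a common marker.

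Each array set the RNA of one culture, labelled with Cy3, against a pool of RNA from mouse cell lines labelled with Cy5, and the values are log2(Cy3/Cy5). There was 1 array per line and medium. Every p-value rests on how much the differences between media varied from line to line, with levels of the lines themselves taken out. This spread was taken over all 12 arrays, LIF+ included. A gene thus has the same SE in each contrast between media. Each Nanog line shares its strain with an unmodified line. ES 129.3 is matched to Nanog/EF1#6 by strain only, since the labels and the study's methods name the line it was made from differently. Median Cy3 signals ran from 567 to 641 over the 8 arrays, against a median background of 375 to 386 around the spots, and between 1.78% and 5.07% of probes for genes were dimmer than the 95th percentile of the negative control spots. Of 37682 genes and unnamed probes tested, 13712 were genes with a symbol. In the LIF+ arrays the ES markers Zfp42 (5.20 to 6.01) and Sox2 (5.17 to 5.95) were far above the reference pool in all 4 lines. The Nanog ratio in LIF+ was 1.28 in Nanog episomal against 1.91 in its parent MG1.19, and 2.48 in Nanog/EF1#6 against 1.61 in ES 129.3. The part of the transcript that the Nanog probe reads is not given in the sources used here, so these values do not check the transgenes, and the lines are called as their labels call them. The first principal component held 38.0% of the variance over 12 arrays. On it 3 of the RA arrays lay at 42.0 to 44.7 and that of Nanog/EF1#6 at -4.89, inside the range of the LIF- arrays (-29.3 to 9.26). On the second component (25.1%) the RA array of Nanog/EF1#6 was at 45.7, the other RA arrays at 13.2 to 16.9 and the LIF- arrays at -33.2 to -4.45. It was thus not like a LIF- array on both components. For some genes at which Nanog/EF1#6 stood apart, chosen after their values were seen, the difference without it is given below as well.

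A total of 2131 genes and unnamed probes (5.66%) differed between RA and LIF- by at least 1.5-fold with an adjusted p below 0.05, and are called here. Of these, 1521 (4.04%) were higher in RA and 610 (1.62%) lower. Among genes with a symbol, 996 were higher in RA and 414 lower, and 706 of all called features passed 2-fold (521 higher, 185 lower). The median difference over all features was -0.01. The lowest RA array lay above the highest LIF- array, or the reverse, for 5749 of the 37607 features measured on all 8 arrays (15.3%), among them 1557 of those called. Of the called features, 2116 had one sign in all 4 lines, as had 14179 of the 37607 features measured on all 8 arrays. A call on the mean of the same 4 lines favours one sign, so this count is no separate support. The count of calls was 2034 without Nanog/EF1#6. It fell to 1314 without MG1.19, to 960 with no background correction and to 757 with the test of the study's methods, which raises low variances to those of genes of similar signal.

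**Figure D1:**
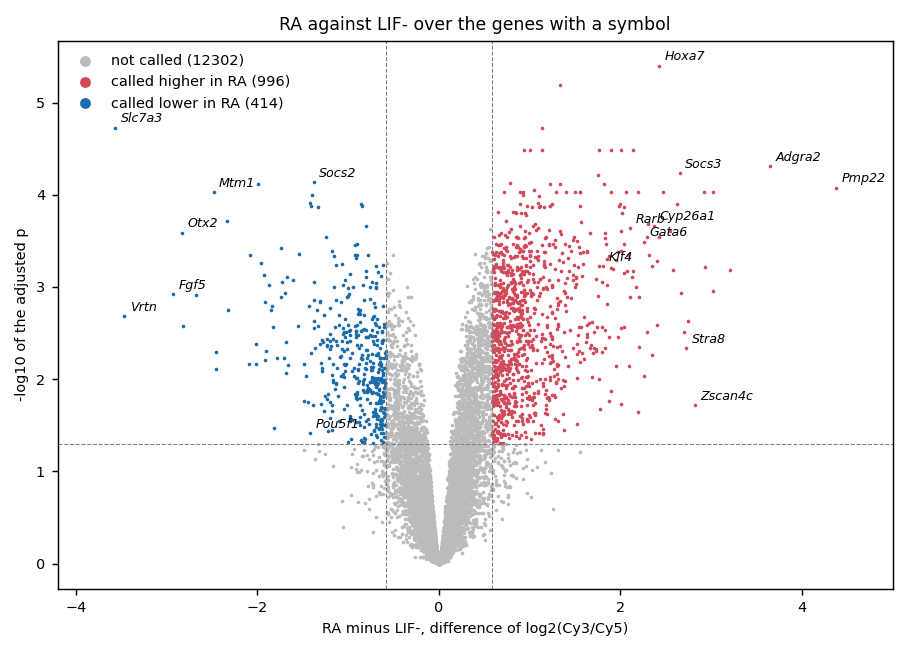
Difference between RA and LIF- (log2, x axis) against the -log10 of its adjusted p (y axis) for every gene with a symbol, 1 point per gene. The 996 called higher and the 414 called lower are coloured, the 12302 others are grey, and dashed lines mark the thresholds.

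Against the LIF+ arrays, RA gave 1751 higher (4.65%) and 454 lower (1.2%) features. LIF- gave 165 higher (0.438%) and 189 lower (0.502%). Both of these contrasts use the same 4 LIF+ arrays. The LIF- count was far less stable: it was 4 without MG1.19, 68 without Nanog/EF1#6, 113 without Nanog episomal and 0 by the methods' test, where 2418 features had an unadjusted p under 0.05. It was 21 when the lines were not matched.

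The 3 markers of the comparison behaved as follows. Values are given throughout in the order Nanog episomal, Nanog/EF1#6, MG1.19, ES 129.3, and differences as the mean over 4 lines ± SE of the fit. Cyp26a1, which encodes the cytochrome P450 that degrades RA, was at 0.24, 0.25, 0.33 and 1.05 in LIF- and at 3.10, 2.88, 2.75 and 2.61 in RA. Its RA arrays all lay above its LIF- arrays, by 2.37 ± 0.18 (5.15-fold, adjusted p = 0.000216). Socs3, the inhibitor induced by STAT3, was at -1.99, -2.25, -1.81 and -1.64 in LIF- and at 0.79, 0.71, 0.68 and 0.74 in RA, 2.65 ± 0.14 higher (6.29-fold, adjusted p = 5.86e-05). Here RA stayed at the LIF+ level of 0.66, 0.69, 1.04 and 0.42, and it was the LIF- cultures that stood apart, at -2.62 against LIF+ (adjusted p = 0.000592). Fgf5 ran the other way, at 3.07, 3.16, 3.29 and 4.00 in LIF- and at 0.36, 0.18, 0.67 and 0.61 in RA, a difference of -2.92 (SE 0.35, 7.59-fold lower, adjusted p = 0.00121). The LIF+ level of Fgf5 was -0.14, 0.12 and 0.31 in the first 3 lines but 2.51 in ES 129.3. A second, dimmer Fgf5 probe gave -0.81, and a second Cyp26a1 probe 2.78.

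**Figure D2:**
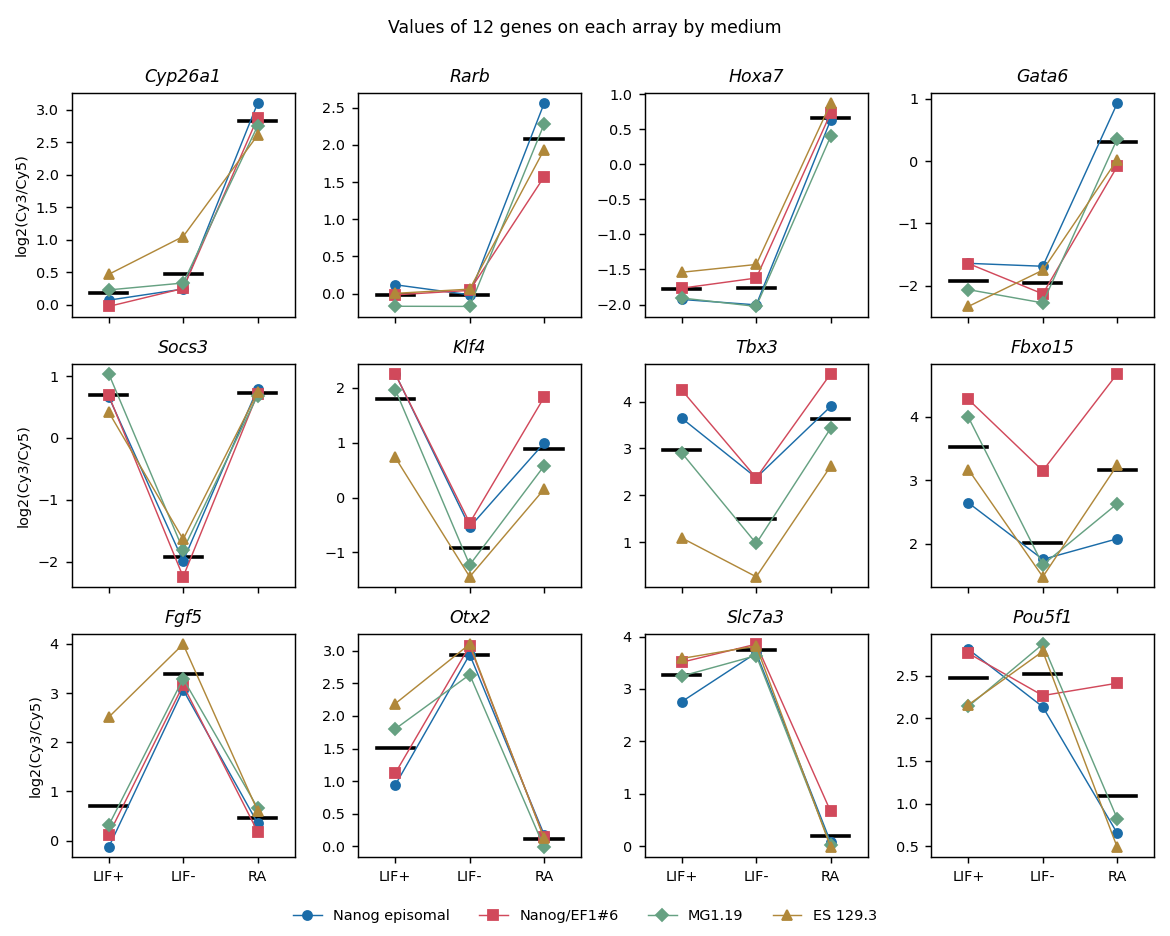
Log2(Cy3/Cy5) of 12 genes (y axis) on each array by medium (x axis), with the 4 lines as separate points joined across media and black bars at their means. Cyp26a1 is high in RA alone, Socs3 low in LIF- alone, and Fgf5 high in LIF- and, in ES 129.3, already in LIF+ (2.51).

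Cyp26a1, Socs3 and the receptor gene Rarb are shown with the 250 bases that precede their transcription starts, since the letters that the receptors or STAT3 are known to read can be looked for there. The sequences are those of RefSeq on GRCm38.p6, 5′ to 3′ on the strand of the gene. Cyp26a1 lies at chr19:37697558-37697807 (plus strand), Rarb at chr14:16575477-16575726 (minus strand) and Socs3 at chr11:117969367-117969616 (minus strand). Capitals mark a direct repeat of 2 retinoid half-sites with 5 bases between in Cyp26a1 and Rarb, and a TTCNNNGAA match in Socs3.
Cyp26a1: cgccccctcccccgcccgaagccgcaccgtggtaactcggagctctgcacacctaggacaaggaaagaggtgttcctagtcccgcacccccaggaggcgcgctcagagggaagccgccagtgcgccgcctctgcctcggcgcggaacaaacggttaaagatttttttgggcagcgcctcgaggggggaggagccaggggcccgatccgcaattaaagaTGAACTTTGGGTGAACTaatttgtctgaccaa
Rarb: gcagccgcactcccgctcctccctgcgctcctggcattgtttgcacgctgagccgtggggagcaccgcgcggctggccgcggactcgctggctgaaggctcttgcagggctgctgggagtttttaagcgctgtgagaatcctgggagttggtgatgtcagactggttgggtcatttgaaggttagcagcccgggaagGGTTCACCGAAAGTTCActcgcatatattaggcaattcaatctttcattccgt
Socs3: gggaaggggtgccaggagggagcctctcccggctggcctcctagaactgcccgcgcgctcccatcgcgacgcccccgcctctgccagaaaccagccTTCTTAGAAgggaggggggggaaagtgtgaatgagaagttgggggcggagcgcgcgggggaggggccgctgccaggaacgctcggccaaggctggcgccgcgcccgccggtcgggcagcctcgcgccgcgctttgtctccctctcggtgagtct

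The direct repeat was searched on both strands of 300-base windows (250 before to 50 after the start), with AGGTCA as the classical half-site, and AGTTCA as one variant, GGGTCA as another and GGTTCA as the last. It occurred in 31 of 27025 promoters (0.115%). Cyp26a1 holds it on the opposite strand as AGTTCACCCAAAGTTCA, from base -32 to base -16, and Rarb as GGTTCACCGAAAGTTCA, from -53 to -37. Of the 8 measured genes that hold it, 3 were called higher in RA (Cyp26a1, Rarb and, named after its value was seen, the platelet chemokine Ppbp) and 0 lower. Over all called genes with a promoter entry the share was 3 of 793 higher in RA (0.378%) and 0 of 332 lower. The same half-sites with 2 bases between were searched as well, and were in 0.311% of all promoters. They were in 1 of 793 higher in RA (0.126%) and 1 of 332 lower (0.301%). The palindrome TTCNNNGAA was in 9.55% of all promoters, 6.94% of those higher in RA and 6.63% of those lower. The Socs3 match, TTCTTAGAA, lies at -154 to -146. Among the called STAT3 target genes with a promoter entry 2 of 8 had one, Socs3 and Icam1. The Rarb promoter also held one, which overlaps its direct repeat. A match shows that the letters are there, not that a factor was bound.

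The largest differences in either direction were then examined, among called genes with a symbol and one sign in all 4 lines. Pmp22, a membrane protein of peripheral myelin, had the largest gain in RA, with LIF- at -2.07, -2.41, -1.36 and -1.47 and RA at 3.09, 1.41, 3.08 and 2.62 (4.38 ± 0.26, 20.8-fold, adjusted p = 8.4e-05). Adgra2, an adhesion receptor that takes part in WNT7 signalling, followed at 3.65 ± 0.18. The homeobox gene Meis1, whose product is a partner of Hox proteins, was at -1.93, -1.91, -1.71 and -1.97 in LIF- and at 1.80, -0.19, 1.97 and 1.74 in RA (3.21 ± 0.33, and 3.71 without Nanog/EF1#6). For all 3 the RA and LIF- arrays were apart, and Nanog/EF1#6 had the lowest RA value. The same held for Tshz1 (3.02), a zinc finger gene of the teashirt family, Zfp703 (2.93), a transcriptional repressor, the tissue factor gene F3 (2.67), Zadh2 (2.62) and Cdc42ep1 (2.58), a CDC42 effector. Smooth muscle actin Acta2 (3.02 ± 0.35) and the annexin Anxa1 (2.75 ± 0.38) were also among the 15 largest, but with groups that overlapped, since the lines differed: Acta2 on RA was -1.30 in Nanog/EF1#6, below the -0.67 of ES 129.3 on LIF-. Without Nanog/EF1#6 the difference of Acta2 was 3.38. Stra8, Socs3, Zscan4c and Tcstv3 were also among them.

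Zscan4c and Tcstv3, genes of families active in cleavage-stage embryos and in a rare state of ES cells, were set apart by line. Zscan4c was at 0.79, 5.56, 0.67 and 1.28 in LIF- and at 3.56, 5.61, 4.61 and 5.81 in RA. In Nanog/EF1#6 it was high in all 3 media (5.88 in LIF+), and the gain in RA lay in the other 3 lines. Its difference of 2.82 ± 0.63 (adjusted p = 0.0191) lost its call in 7 of 17 alternative analyses, and was 3.75 without Nanog/EF1#6. Its spot was saturated on 1 RA array and its Cy5 signal rose by 1.24 beside a Cy3 rise of 4.06, so its size and its place among the 15 largest are uncertain. Tcstv3 had the same shape, at -0.38, 4.03, -0.36 and 0.28 in LIF- and 1.87, 5.22, 3.06 and 4.24 in RA (2.70 ± 0.40, adjusted p = 0.00306), and 3.21 without Nanog/EF1#6. Both belong to families of near-identical copies, which a probe may not tell apart.

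Genes lower in RA were led by Slc7a3, a transporter of cationic amino acids, at 3.69, 3.85, 3.64 and 3.82 in LIF- and 0.07, 0.66, 0.02 and -0.02 in RA. It fell by 3.56 on the log2 scale (SE 0.14, 11.8-fold, adjusted p = 1.88e-05), and stood lower in RA than in LIF+ too (-3.09). Without Nanog/EF1#6, which had its highest RA value, the difference was -3.69. Vrtn (vertnin) was at 3.33, 3.08, 3.31 and 3.93 in LIF- and between -0.12 and 0.03 in RA (-3.47, SE 0.46, 11.1-fold). Otx2, a homeobox gene of the epiblast and anterior neural plate, was at 2.94, 3.07, 2.63 and 3.10 in LIF- and between -0.01 and 0.18 in RA (-2.83, SE 0.22, adjusted p = 0.000258). The transporter of neutral amino acids Slc6a15 (-2.82) and the kinase Pim2 (-2.68) were lower in RA as well. So was Pou3f1, which encodes the POU factor OCT6 (-2.46, SE 0.41, adjusted p = 0.00513). Psmb8, a subunit of the immunoproteasome, was at -1.32, -2.04, -0.91 and -0.45 in LIF- and between -3.79 and -3.45 in RA (-2.45). A second probe of Psmb8 gave -1.03. The remaining 7 were Mtm1 (-2.48), a lipid phosphatase, Snhg14 (-2.33), a long noncoding RNA of an imprinted region, the carbonyl reductase Cbr3 (-2.32), Bspry (-2.09), the noncoding Platr10 (-2.08), Fndc3c1 (-2.02) and Tmem54 (-2.02). Mtm1 rests on its brighter probe, since the dimmer one gave 0.18.

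Set beside LIF+, the lower genes differed in which contrasts were called. This sorting rests on the thresholds, and differences between the genes were not tested. Vrtn (-1.08, not called) and Snhg14 (-1.06, called) had similar RA minus LIF+ values. The LIF- calls were also far less stable, as given above. Slc7a3 (0.48, adjusted p = 0.162 for LIF- minus LIF+), Platr10 (-0.04) and Mtm1 (0.33) were not called in LIF-, and their RA minus LIF+ differences were -3.09, -2.12 and -2.15, all called. Vrtn (2.39 in LIF- minus LIF+, adjusted p = 0.0471), Fgf5 (2.68), Pim2 (1.83) and Fndc3c1 (1.77) were called higher in LIF-, and their RA minus LIF+ differences of -1.08, -0.25, -0.85 and -0.25 were not called. Otx2 was called in both, up in LIF- (1.42, adjusted p = 0.0265) and down in RA (-1.40, adjusted p = 0.00425), and so was Snhg14 (1.27 and -1.06). ES 129.3 stood above the other lines in LIF+ for Vrtn (3.14 against 0.00 to 0.87), Fgf5 (2.51) and Pim2 (1.70 against -0.15 to 0.05).

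Lists of genes were then counted, 20 in all. Each count is to be read against all 13712 genes with a symbol, of which 996 were higher in RA than in LIF- and 414 lower. Against LIF+, RA had 1162 of them higher and 338 lower, and LIF- 128 and 146. Members named below that were not called, or that came after the first 5 called members of a list, were named after their values were seen. Of 25 genes of retinoid signalling, 21 were measured, of which 5 were higher in RA than in LIF- and 1 was lower, with a list median of 0.13. The enzymes called were Cyp26a1 (above) and Dhrs3, which returns retinaldehyde to retinol (0.83 ± 0.11, adjusted p = 0.00184). The related Cyp26b1 (-0.01) and the RA-making Aldh1a2 (0.13) and Aldh1a3 (0.00) were not called. Stra6, the cell surface receptor for retinol-binding protein, rose by 1.01 ± 0.09 (adjusted p = 0.000445). Of the receptors, Rarb was near 0 in LIF- (-0.02, 0.04, -0.17, 0.06) and at 2.56, 1.57, 2.28 and 1.94 in RA (2.11 ± 0.16, 4.31-fold, adjusted p = 0.000231). Rara (-0.04), Rarg (-0.11), Rxrb (-0.25) and Rxra (0.82, adjusted p = 0.08) were not called. Rxrg was lower in RA (-0.88, SE 0.16, adjusted p = 0.00678), and its dimmer probe gave -0.15. Rdh10, which oxidises retinol, and Fabp5, a fatty acid carrier that also binds RA, were called higher in RA against LIF+ (1.14 and 1.10) but not against LIF- (0.45 and -0.01).

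Of 23 measured genes commonly induced by retinoids, 12 were higher in RA than in LIF- and 0 lower (median 0.97). Besides Meis1, Tshz1, Zfp703 and Stra8 they included Meis2, at 0.23, 0.33, 0.13 and 0.30 in LIF- and 1.72, 0.80, 1.97 and 2.61 in RA (1.52 ± 0.29, adjusted p = 0.00977). Skap2, Foxa1, Tgm2, Efnb1, Nr2f2 and Pdgfra rose by 0.67 to 1.52, with groups apart for each. Of these, Skap2, a neighbour of the Hoxa cluster, fell in LIF- against LIF+ (-0.94, adjusted p = 0.016). Stra8, the gatekeeper of meiosis, was at 2.86, 2.52, 2.04 and 0.24 in LIF- and 4.85, 4.39, 4.49 and 4.82 in RA (2.73 ± 0.44). The size of its gain is uncertain, since the Cy5 signal of this spot also rose, by 4.35, beside a Cy3 rise of 7.08, and its spot was saturated on some arrays. Cy5 carried the same RNA on every array. It moved by more than 0.5 for 31 of the 2131 called features and for 81 of all 37682 tested. Such shifts were thus more frequent among called features.

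The Hox genes, which pattern the body axis, were measured for 26 of 39 members. Of these, 8 were higher in RA than in LIF- and 0 lower (median 0.30). RA and LIF- arrays were apart for 17 of 26, against 15.3% of all features measured on all 8 arrays. Hoxa7 was the most even, between -2.03 and -1.43 in LIF- and at 0.63, 0.73, 0.40 and 0.87 in RA (2.43 ± 0.06, adjusted p = 3.98e-06). Hoxb1 rose by 2.14 ± 0.10 (adjusted p = 3.3e-05) and Hoxa5 by 1.99 ± 0.13 (adjusted p = 0.000126). For these genes every RA array was at least 1 log2 unit above every LIF- array. Hoxa10 (1.04), Hoxa2 (0.89), Hoxb6 (0.76) and Hoxc6 (0.60) rose by less. Hoxd1 (0.01) was not called, nor were Hoxb4 (0.32), Hoxd3 (0.20) and Hoxd4 (0.15). Hoxa11 in LIF- and Hoxd10 in both media lay below the negative controls on all 4 arrays, and no fold is given for them. Against LIF+, RA raised 7 of the 26 and LIF- 0.

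The LIF receptor and STAT3 pathway was measured for 18 of 21 members, and 5 were higher in RA than in LIF- and 1 lower (median 0.29). The receptor gene Lifr was at 0.05 (not called). The kinases Jak2 (0.95 ± 0.07, adjusted p = 0.000246), Jak1 (0.81 ± 0.11) and Tyk2 (0.72 ± 0.13) were higher in RA. Jak1 and Jak2 were also higher in RA than in LIF+ (0.87 and 0.82) while their LIF- minus LIF+ differences were 0.06 and -0.13. Osmr, the receptor of the related oncostatin M, rose by 0.94 ± 0.16, with a second probe at 0.09. Of the inhibitors, Socs2 went against Socs3: it was at 0.63, 0.94, 1.04 and 1.58 in LIF- and at -0.58, -0.39, -0.47 and 0.12 in RA (-1.38, SE 0.07, adjusted p = 7.28e-05), with LIF- at -0.15 against LIF+.

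Of 22 measured STAT3 target genes, 9 were higher in RA than in LIF- and 1 lower (median 0.41). Against LIF+, LIF- lowered 8 of the 22 and raised 1, and RA lowered 3 and raised 3. The transcription factor Klf4 was at 2.26, 2.25, 1.97 and 0.73 in LIF+, at -0.54, -0.46, -1.23 and -1.44 in LIF- and at 0.99, 1.83, 0.58 and 0.15 in RA. Its RA level lay between the other media in every line and differed from both (1.81 ± 0.18 above LIF-, adjusted p = 0.000598, and -0.91 against LIF+, adjusted p = 0.0112). Tfcp2l1, another factor of the naive state, was at 0.75, 1.61, 0.61 and 0.38 in LIF- and 2.21, 3.43, 2.13 and 1.85 in RA (1.56 ± 0.12, adjusted p = 0.000197), with LIF- at -2.14 against LIF+. The T-box gene Tbx3 was at 2.38, 2.37, 0.98 and 0.27 in LIF- and 3.89, 4.59, 3.43 and 2.62 in RA (2.14 ± 0.22). Its RA and LIF- arrays did not overlap. The adhesion gene Icam1 (1.05) was lower in LIF- than in LIF+ (-1.42) as well, and Rhox5 (1.25) was called in RA against LIF- only. By contrast Cebpb (1.06), Ier3 (1.12) and Fos (0.67) rose in RA against LIF+ too, by 1.43, 1.26 and 0.68, and were not called in LIF-. Irf1, an interferon-response factor, was the member lower in RA (-1.29, adjusted p = 0.00381), and LIF- raised it by 1.30 against LIF+.

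Among 30 measured core and naive pluripotency factors, 5 were higher in RA than in LIF- and 7 lower (median -0.18), so the media did not differ in one direction. The 5 were Tbx3, Spp1 (1.99 ± 0.14), which encodes the secreted protein osteopontin, Klf4, Tfcp2l1 and Fbxo15 (1.14 ± 0.29). All 5 were called lower in LIF- than in LIF+, at -1.47, -1.59, -2.72, -2.14 and -1.51. Lower in RA were, among others, Pou5f1 (-1.42), which encodes OCT4, Utf1 (-1.33), Tdh (-1.29), Foxd3 (-1.20), the RNA-binding Lin28a (-1.07) and Sox2 (-1.05). LIF- minus LIF+ was 0.05 for Pou5f1 and -0.34 for Sox2, neither of them called, and 0.76 for Lin28a, which was called. Pou5f1 differed by line, at 2.14, 2.27, 2.87 and 2.79 in LIF- and 0.65, 2.42, 0.82 and 0.49 in RA. The RA value of Nanog/EF1#6 lay inside the LIF- range and those of the other 3 lines below it. Without Nanog/EF1#6 the difference of Pou5f1 was -1.95. Nanog itself (-0.38, adjusted p = 0.24) was not called over 4 lines, and in RA it was 2.49 in Nanog/EF1#6 against 0.66 to 1.27 in the others. Without Nanog/EF1#6 the difference of Nanog was -0.68. That line was left out after its values were seen, so these fits are no separate test of Pou5f1 or Nanog. Nr0b1 (RA minus LIF+ -2.78, LIF- minus LIF+ -2.25) and Tcl1 (-2.08 and -1.66) were lower in both media and not called between them.

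**Figure D3:**
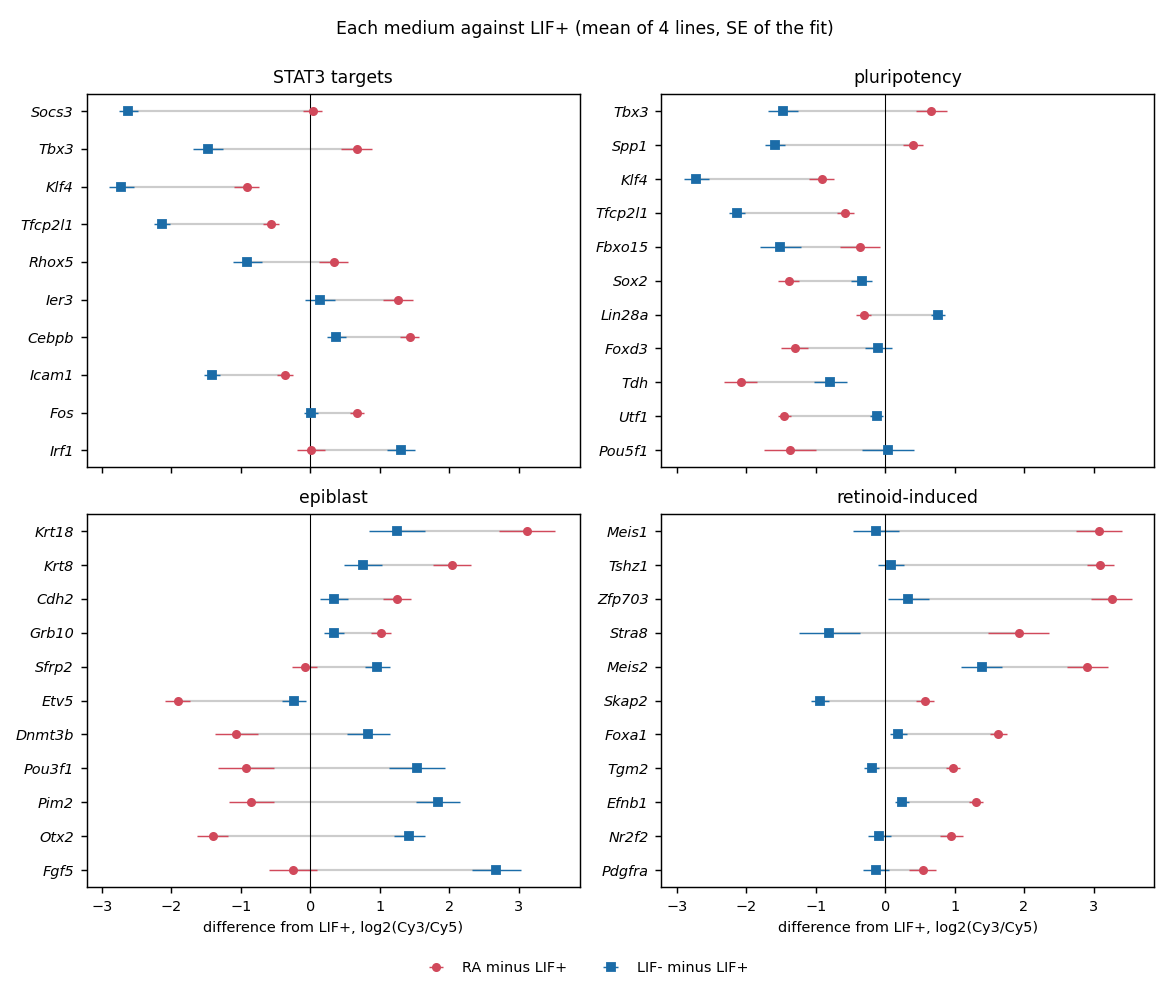
Difference from LIF+ (log2, x axis) of RA (red circles) and of LIF- (blue squares) for called members of 4 lists (y axis), as the mean of 4 lines with the SE of the fit. Both differences use the same LIF+ arrays. Socs3, Klf4 and Tfcp2l1 have LIF- far below 0 (-2.62, -2.72 and -2.14), Fgf5 has LIF- far above 0 (2.68) with RA near it, and Meis1 and Tshz1 have RA above 3 with LIF- near 0.

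The epiblast and primed-state genes were measured for 18 of 20 members, and 7 were lower in RA than in LIF- and 4 higher (median -0.51). The 7 were Fgf5, Otx2, Pim2, Pou3f1, the DNA methyltransferase gene Dnmt3b (-1.90, SE 0.31, adjusted p = 0.00495), the ETS factor gene Etv5 (-1.68, SE 0.18) and the WNT antagonist gene Sfrp2 (-1.05). The second Etv5 probe gave -0.30, and the Cy5 signal fell by 0.93 for Dnmt3b and 0.75 for Fgf5, beside Cy3 changes of -2.83 and -3.67. The 4 higher in RA were the keratins Krt18 (1.87) and Krt8 (1.28), N-cadherin Cdh2 (0.91) and Grb10 (0.68), which other cell types also make. Against LIF+, LIF- raised 5 of the 18 and lowered 0, whereas RA raised 4 and lowered 2.

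Lineage genes were examined by list, and fewer cells of a type cannot be told apart from less RNA per cell in such cultures. Of 23 measured extraembryonic endoderm genes, 11 were higher in RA than in LIF- and 0 lower (median 0.67). Gata6, a factor that drives this lineage, was at -1.69, -2.13, -2.28 and -1.75 in LIF- and at 0.92, -0.09, 0.35 and 0.02 in RA (2.26 ± 0.19, 4.8-fold, adjusted p = 0.000322), with no overlap. The plasminogen activator gene Plat (2.08), the factor Sox7 (1.63 ± 0.24), the collagen chaperone Serpinh1 (1.59) and the basement membrane gene Col4a1 (1.54) followed, then Cubn, Foxa2, Lama1, Sox17, Sparc and Pdgfra (0.67 to 1.52). Cubn encodes an uptake receptor of visceral endoderm, but other genes of that tissue were not called, with Afp at 0.37, Amn at 0.16, Ttr at 0.03, Apoa1 at 0.00, Lrp2 at -0.02 and Hnf4a at -0.09. Of Lama1 the Cy5 signal also rose, by 2.17 beside a Cy3 rise of 3.56. In LIF- against LIF+ 1 of the 23 was called, and in RA 10.

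Of 18 measured trophectoderm genes, 7 were higher in RA than in LIF- and 0 lower (median 0.49). The placental homeobox gene Esx1 was at 1.85, 1.04, 1.16 and 0.38 in LIF- and 3.80, 2.89, 4.38 and 2.74 in RA (2.35 ± 0.23, adjusted p = 0.000598), with groups apart. Krt18, the X-linked and closely related Rhox6 (1.52) and Rhox9 (1.25), Krt8, and the GATA factor genes Gata2 (1.22) and Gata3 (1.06) were the others. Krt7 (0.58) was not called, though its dimmer probe gave 2.06. Cdx2 gave 0.07, and its dimmer probe -0.03. The study's methods call a Cdx2 probe unresponsive when treating the Pou5f1 series, and whether either of these is meant is not given. Of 17 primitive streak and mesendoderm genes, Foxa2 was higher in RA (1.47 ± 0.16) and Wnt3 (-1.01) and Fgf8 (-0.97) were lower, each of these losing its call in 9 of 17 alternative analyses. T (brachyury) was at -1.37, adjusted p = 0.074, with a second probe at -3.31. Of 35 neural genes, 0 were higher in RA and 3 lower (median -0.03), the POU factor gene Pou3f3 (-1.34), the neurofilament gene Nefl (-1.23) and Neurod1 (-1.06). The neural progenitor genes Sox1 (-0.07) and Pax6 (0.01) were not called. Nor was the neurofilament gene Nefm (-0.23), whose dimmer probe gave -1.43.

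Of the signalling lists, the FGF ligands and ERK feedback genes had 0 of 19 higher in RA than in LIF- and 4 lower, Fgf5, Etv5, Fgf8 and Il17rd (-0.61, second probe -0.12). In the WNT list 2 of 24 were higher, the antagonist Dkk1 (1.51 ± 0.16, adjusted p = 0.000807) and the receptor Fzd1 (0.61, second probe 0.06), and Sfrp2 and Wnt3 were lower. In the BMP and ID list 3 of 17 were higher, Msx2 (0.87), Bmp7 (0.83) and Smad6 (0.82). The NODAL and TGFB list had 1 of 18 higher, the convertase gene Furin (1.21 ± 0.10, adjusted p = 0.000338), and 1 lower, the ligand gene Gdf1 (-1.83, SE 0.26). With lists of this size, the WNT and NODAL counts were close to the shares over all genes with a symbol (996 higher and 414 lower of 13712). Among cell cycle regulators 5 of 22 were higher and 0 lower, with a list median of -0.12. The 5 were the kinase inhibitor genes Cdkn2b (1.97 ± 0.30), Cdkn2a (0.70) and Cdkn1a (0.67), the retinoblastoma gene Rb1 (0.64) and the D-type cyclin gene Ccnd3 (0.81). The inhibitor genes Cdkn1b, Cdkn1c and Cdkn2c were not called. Cdkn1c was at 4.09, 4.47, 3.22 and 3.39 in LIF- and at 2.27, 3.75, 2.87 and 3.70 in RA. The second Cdkn1a probe gave 0.10. Stra8 and Dazl (0.94) were the 2 called of 13 meiosis and germ cell genes. Kit was not called at -0.12, but its dimmer probes gave 1.03 and 0.93.

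**Figure D4:**
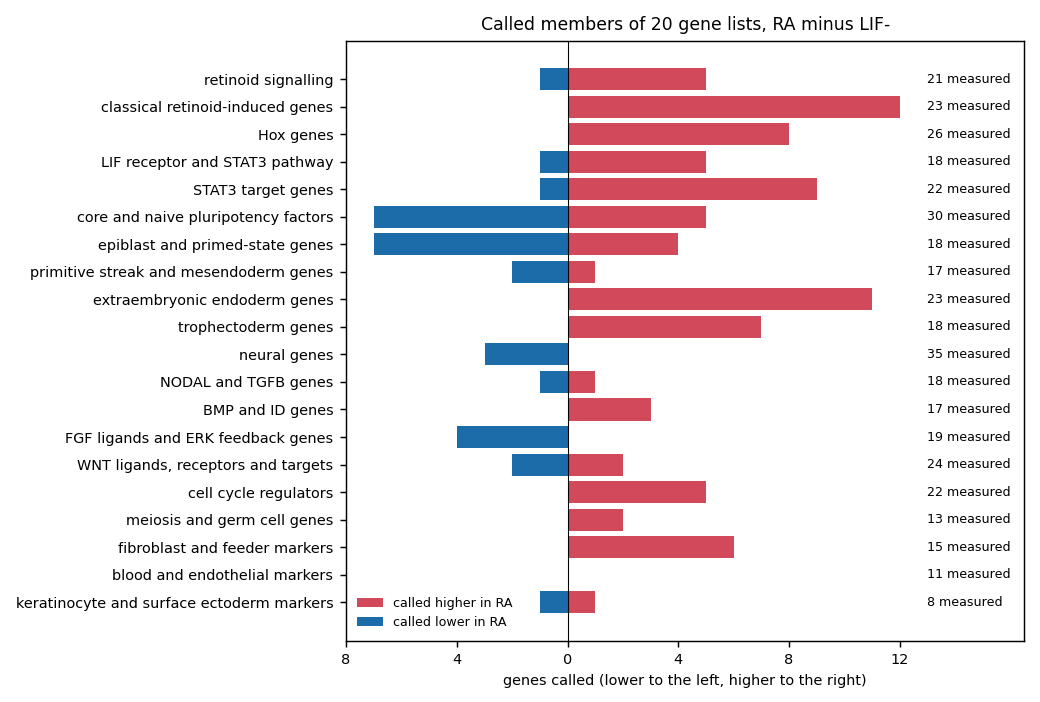
Number of measured members of each of 20 lists (y axis) called higher or lower in RA than in LIF- (x axis, bars to the right and left of 0). The retinoid-induced genes (12 of 23) and the extraembryonic endoderm genes (11 of 23) have the longest bars to the right, and the epiblast genes and the pluripotency factors (7 each) to the left.

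Markers of other cell types in the cultures were compared too. The fibroblast and feeder list had 6 of 15 higher in RA than in LIF-, Acta2, Vim (1.89), Pdgfrb (1.55, second probe 0.10), Col1a1 (1.04), Fn1 (0.95) and Fbln2 (0.78), with a list median of 0.78. Against LIF+, 10 of the 15 were higher in RA and 0 in LIF-. The sum of the linear ratios of this list was 3.53 to 5.46 in LIF- and 4.46 to 13.6 in RA, and 3.16 to 5.45 in LIF+. The 9 members not called ran from Thy1 (-0.03), S100a4 (0.01) and Lum (0.06) to Dcn (0.83) and Postn (0.84), and the part of such cells in the result was not tested. In the blood and endothelial list 0 of 11 were called, with sums of 8.72 to 9.30 in LIF- and 8.40 to 8.93 in RA. The keratinocyte list had Perp (1.11) higher and the epithelial adhesion gene Epcam (-1.92) lower, of 8.

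The lines were compared last. In single lines 778 features were more than 2-fold higher in RA than in LIF- and 294 lower in Nanog episomal, 619 and 276 in Nanog/EF1#6, 694 and 287 in MG1.19, and 602 and 235 in ES 129.3. The deviations of the RA and LIF- arrays of a line from the group means correlated across genes, with r of 0.47, 0.67, 0.48 and 0.56. No gene had an RA minus LIF- difference that was called different between the Nanog and the unmodified lines, or between the 129SvEv-Tac and the 129Sv lines (0 of 37682 in limma at an adjusted p below 0.05 and 0 in each of 17 alternative analyses, with 1125 and 1598 features at an unadjusted p under 0.05). Each of these tests had 4 residual degrees of freedom. The arrays of each strain were extracted from images on days of their own, so strain and day cannot be told apart. Passage also differed between MG1.19 and ES 129.3, and cannot be told apart from strain in these lines.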

How the data were processed

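Expression was measured on two-colour 44K arrays, with the sample in Cy3 and Universal Mouse Reference RNA in Cy5 on all of them (no dye swap). Per the file headers, the deposited spot intensities are mean signals and median local backgrounds from Agilent Feature Extraction 7.5.1. The authors' own table holds normalized log10 signals for the 12 arrays. In 1 deposited column a code for missing values stands in 10 cells, so that its unit was recorded as a score, and the code was set to missing. The table was used as an alternative only. Spots called outliers were set to missing, backgrounds were corrected by normexp with an offset of 50, which shrinks differences of dim genes, ratios were normalized by loess within arrays, and control spots were left out. Probes were named by RefSeq accession (15294) or the study's probe tables (1742), and a symbol was represented by its brightest probe. Unnamed probes were kept singly in the tests.

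The 12 arrays were fitted with limma 3.58.1 (R 4.3.3) with medium and line as terms, the replicate number being the line, since media were matched within a line. Deviations of RA and LIF- arrays of a line correlated at 0.47 or more. Those of the LIF+ array of Nanog episomal correlated less, at 0.21 with LIF- and 0.05 with RA. In the other lines LIF+ correlated with either medium at 0.47 to 0.76. A call needed a Benjamini-Hochberg adjusted p below 0.05 over all 37682 features and a change of at least 1.5-fold. Interaction terms compared the Nanog with the unmodified lines, and the strains. The steps were tested on simulated data with 200 changed genes. Arrays have no read depth, and their number (4 per medium) limits the precision. The text names the 15 genes of largest difference in each direction, the 3 markers, and up to 5 called members per list. Those 15 were taken from called genes with a symbol and one sign in all 4 lines. The members and lists were chosen with earlier results of these data known. The 17 alternatives tried included other background corrections, Cy3 alone, the bleaching regression and the test of the study's methods, and each line left out. Listed genes without a named probe were not analysed here. Some genes that met the naming rule are not reported here by name, though they are in the counts and medians.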

Additional observations from a re-analysis of the deposited data

Results flagged for a closer look

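In 13 of 178 groups of 4 arrays, 1 line stood far from the other 3 by Dixon's test, which chance alone would give in about 1 of 20 groups. Nanog/EF1#6 was the line in 9 of the 13. On LIF- it was high for Zscan4c (5.56, next 1.28), Tcstv3 (4.03, next 0.28) and Neurod1 (2.63, next 1.55). On RA it was low for Meis1 (-0.19, next 1.74), Zadh2 (-1.25, next 0.21), Wnt3 (0.26, next 1.22) and Il17rd (1.27, next 2.24), and high for Slc7a3 (0.66, next 0.07) and Rxrg (0.48, next 0.10). ES 129.3 was high for Cyp26a1 (1.05, next 0.33) and Adgra2 (-2.84, next -3.22) on LIF- and for Cdkn1a (0.55, next -0.43) on RA. MG1.19 was high for Ccnd3 on RA (1.04, next 0.59). Why these lines stand apart was not tested.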

How the results depend on the processing

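The main counts of called features were 2131 (RA minus LIF-), 2205 (RA minus LIF+) and 354 (LIF- minus LIF+). Without the replicate block, that is with lines not paired, they were 1395, 1375 and 21. With no background correction they were 960, 925 and 57, and with the methods' test 757, 1060 and 0 (2418 at an unadjusted p under 0.05). With extraction day as the block in place of line, LIF- minus LIF+ gave 29. Leaving out each line in turn gave 1314 to 2034, 1427 to 2231 and 4 to 475, the lowest always without MG1.19, which shows how much LIF- minus LIF+ rests on single lines; the cause was not tested. All other alternatives kept these counts within 1.5 times. The line interactions gave 0 calls in every analysis. Of 89 genes named by rule, 46 kept direction and call in all 17 alternatives; over 1513 pairs of gene and alternative 155 lost the call and 0 changed sign. Il17rd lost it in 10, Wnt3 and Fgf8 in 9, Fzd1 in 8, Zscan4c and Col1a1 in 7. Stra8 ranged from 2.11 to 7.18. Of 340 list medians recomputed, 37 moved by more than the spread between lines. Signal near the negative controls limits the dim Hox genes.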
